A study of Mus musculus with 31 samples.

Results

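Whole hearts of male mice with 2 copies of the Met allele of BDNF (Met/Met, n = 4) were compared with hearts of male mice with 1 copy (Val/Met, n = 6), to ask what the second Met allele adds. These 10 hearts were taken by genotype and by the male title of the sample from the 31 hearts of the series, which also holds 5 male hearts without the Met allele (Val/Val) and 16 female hearts of the same genotypes (6 Val/Val, 4 Val/Met and 6 Met/Met). All mice were 8 weeks old, and the labels name no treatment. They came from heterozygous breeding pairs. The hBDNF Met allele is a knock-in of human BDNF sequence that every cell of the mouse carries, whereas Val/Val mice carry only mouse Bdnf, so Met/Met hearts hold no mouse copy and Val/Met hearts hold 1 of each kind. Each library was made from RNA of a whole heart, so that a fall in the number of cells of a type and a fall in RNA per cell cannot be told apart.

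BDNF is a secreted growth factor that is made as a precursor and signals mainly through the receptor TrkB, and the Met variant lies in the part of the precursor that guides its sorting and release. Cardiac muscle cells fill most of the volume of the heart, while endothelial cells, fibroblasts, pericytes and resident macrophages make up most of its cell number. Class I antigen presentation, which nearly all of these cells can carry out, and class II antigen presentation, which is the task of macrophages, dendritic cells and B cells, are both raised by interferons.

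The values were gene counts that had been normalized by the authors, and their sum lay between 28804771 and 29512011 in the 10 hearts. Of the other hearts, which enter the fit but not the means compared, 2 had larger sums because of 1 processed pseudogene, Gm4613. They were male Val/Val replicate 4 (9.19e+12) and female Val/Met replicate 5 (66645780). Without this gene the sums of all 31 hearts lay between 28268518 and 29511943. The quartiles of the values were also nearly alike in these hearts, with the 75th percentile between 1229 and 1241, and the most abundant transcripts could take the same value in several hearts, such as mt-Cytb with 309162 in all 4 Met/Met hearts. The library names put 3 Met/Met and 3 Val/Met hearts in the first batch, 1 of each in the second and 2 Val/Met hearts in the third. The deposited log2 values had the same mean in every batch of a group, to within 8.93e-06. As a result Met/Met replicate 4 and Val/Met replicate 4, each alone in its batch, sat at the mean of their group. They added no spread of their own. The fit pooled its estimate of the spread over all 31 hearts and counted these lone hearts as full ones. Its standard errors are smaller for including them. An SD given below for 4 or 6 hearts is smaller for including them (for B2m in Met/Met hearts it was 483 with replicate 4 and 592 without). Since no Met/Met heart was in the third batch, a batch difference that entered the group means and the effect of genotype cannot be told apart.

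Of 13733 genes with a mean of at least 29 units, 583 (4.25%) had an unadjusted p under 0.05 and a change of at least 1.5-fold between Met/Met and Val/Met hearts, the thresholds used in the study. They were 212 (1.54%) with higher and 371 (2.70%) with lower values in Met/Met hearts. With no minimum fold, 1929 genes (14.0%) were higher and 1599 (11.6%) were lower at an unadjusted p under 0.05, and below a gene is said to have risen or fallen when it passed that test. All 4 Met/Met hearts were above all 6 Val/Met hearts for 1580 genes (11.5%) and below them for 1061 (7.73%), and the genes were the same with both replicates 4 left out, 3 hearts against 5, since a heart at the mean of its group cannot bring about an overlap. With limma and Benjamini-Hochberg adjustment, 441 genes (3.21%) had an adjusted p under 0.05, but this number hung on single hearts: it was 45 without Met/Met replicate 2, 49 without replicate 3, 116 without replicate 4, and between 134 and 190 when Val/Met replicate 1, 3, 4, 5 or 6 was left out. The number at 1.5-fold was 881 without Met/Met replicate 1. Gene lists are therefore described below by the number of members that rose or fell, beside the share of all genes that did so.

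Genes of antigen presentation were higher in Met/Met hearts. Of 27 members tested, 24 rose (against 14.0% of all genes), none fell, and the median log2 difference was 0.70, against 0.03 over all genes. All 8 class I genes measured rose, with a median of 0.90, and so did all 6 class II genes, with a median of 0.97. Of 12 genes of peptide loading and the immunoproteasome, 9 rose, with a median of 0.37.

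B2m encodes beta-2-microglobulin, the light chain that every class I molecule needs at the cell surface. It had 4179, 4358, 5281 and 4582 normalized counts in Met/Met replicates 1 to 4, and between 2288 and 2541 (median 2413) in the Val/Met hearts. The lowest Met/Met heart was far above the highest Val/Met heart, and the Val/Val hearts, between 1872 and 2987, lay around the Val/Met hearts. The means were 4600 ± 483 (SD, n = 4) and 2413 ± 83.5 (SD, n = 6), a log2 difference of 0.93 (standard error 0.18, limma adjusted p = 0.0112). The classical heavy chains moved with it. H2-K1 had 3327, 3905, 4551 and 3896 in Met/Met hearts and between 1832 and 2343 in Val/Met hearts (log2 difference 0.91, standard error 0.18, limma adjusted p = 0.0126). H2-D1 had 4743, 5446, 5786 and 5307 against 2855 to 3640 (log2 difference 0.72, standard error 0.17, limma adjusted p = 0.0271). Neither gene overlapped between the groups.

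Among the non-classical class I genes, H2-Q4 rose from 456 ± 25.1 (SD, n = 6) in Val/Met to 847 ± 87.2 in Met/Met hearts (SD, n = 4), a log2 difference of 0.89 (limma adjusted p = 0.00627). H2-T22 rose by 0.81 on the log2 scale (limma adjusted p = 0.0126). H2-Q6, with 383, 428, 738 and 494 in Met/Met hearts and 119 to 178 in Val/Met hearts, and H2-Q7, with 439, 458, 564 and 484 against 143 to 192, had the largest differences of the list, 1.77 and 1.55. These neighbours on chromosome 17 are near-identical copies, so that the split of reads between them, though not their joint rise, is uncertain. The genes that supply the peptides also rose. Psmb8, a catalytic subunit of the immunoproteasome, had 260, 270, 273 and 268 in Met/Met and between 142 and 181 in Val/Met hearts, with a log2 difference of 0.70 (limma adjusted p = 0.0348). Psme1, a proteasome activator, differed by 0.40 (limma adjusted p = 0.0252), and Tap1, which carries peptides into the endoplasmic reticulum, by 0.67 (limma adjusted p = 0.0854).

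The class II genes rose by about as much, but with a wider spread among the Met/Met hearts. H2-Aa had 1071, 908, 1318 and 1086 in Met/Met hearts and between 456 and 690 (median 565) in Val/Met hearts. H2-Ab1 had 877, 690, 1209 and 901 against 361 to 552, and Cd74, the invariant chain that guides class II molecules through the cell, had 2825, 2266, 3070 and 2699 against 1202 to 1616. In each of the 3, Met/Met replicate 2 was the lowest Met/Met heart and still lay above every Val/Met heart. Their log2 differences were 0.95, 1.01 and 0.95 with standard errors of 0.30, 0.29 and 0.27, and none of the 6 class II genes had a limma adjusted p under 0.05 (0.0772, 0.0581 and 0.0552 for these 3).

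**Figure D1:**
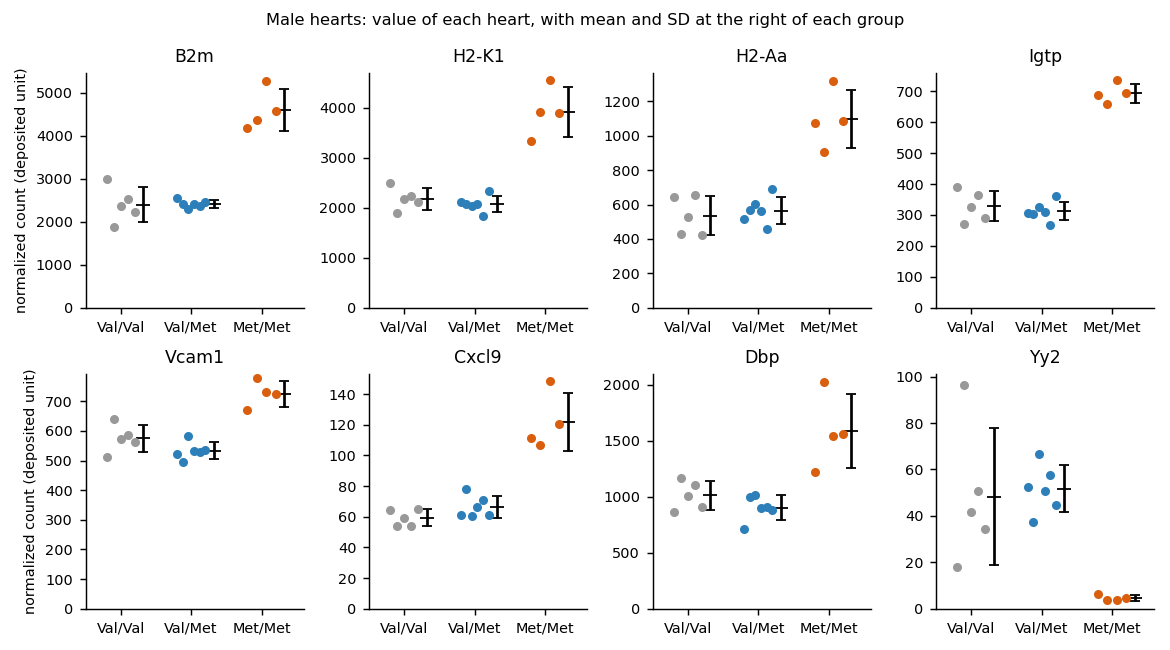
Normalized counts of 8 genes in each male heart (points) by genotype, on linear axes from 0, with the group mean and SD to the right of each group. For B2m, H2-K1, H2-Aa, Igtp, Vcam1, Cxcl9 and Dbp the 4 Met/Met hearts lie above all 6 Val/Met hearts, and for Yy2 they lie below them, between 3.75 and 6.35.

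Interferon-stimulated genes rose as a group as well. Of 60 tested, 25 rose (14.0% of all genes) and none fell, 24 had Met/Met hearts above all Val/Met hearts (11.5% of all genes), and the median log2 difference was 0.33. Igtp, an interferon-inducible GTPase that acts against intracellular pathogens, had 687, 659, 735 and 693 in Met/Met hearts and between 269 and 360 (median 309) in Val/Met hearts, so that no heart came near the other group. Its log2 difference was 1.16 (standard error 0.29, limma adjusted p = 0.0391). Its relatives Irgm2 (1252 ± 51.2 against 647 ± 61.7, SD, n = 4 and 6) and Irgm1 (726 ± 33.8 against 508 ± 22.8) rose by 0.96 and 0.52 on the log2 scale, with limma adjusted p = 0.0436 and 0.079. Gbp10, a guanylate-binding protein with close relatives in the genome, had 159, 83.6, 141 and 123 in Met/Met hearts against 37.2 to 62.0 (log2 difference 1.36, limma adjusted p = 0.0508).

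Cxcl9, a chemokine that draws T cells and is induced by interferon gamma, had 111, 107, 148 and 121 in Met/Met hearts against 60.4 to 78.1 in Val/Met hearts, without overlap (log2 difference 0.87, limma adjusted p = 0.0186). Genes better known as targets of type I interferon gave a similar picture. Isg15, a ubiquitin-like modifier, was at 79.1 ± 9.31 against 43.6 ± 6.91 (log2 difference 0.87, limma adjusted p = 0.0538), Ifit3b at 102 ± 14.8 against 57.2 ± 8.04 (0.84, limma adjusted p = 0.0415) and Ifi27 at 521, 491, 472 and 494 against 320 to 411 (0.48, limma adjusted p = 0.0406).

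The sequence just before the start of these genes is shown because interferon-activated factors are known to bind 2 short motifs there, the interferon-stimulated response element (ISRE, its core searched as GAAA, any 2 bases, GAAA) and the gamma-activated site (GAS, searched as TTC, any 3 bases, GAA), on either strand. The lines give RefSeq promoters on GRCm38.p6, 5′ to 3′ in the direction of the gene and ending at the base before its start, with matches to either motif in capitals and overlapping matches joined.
B2m, chr2:122147537-122147686, plus strand: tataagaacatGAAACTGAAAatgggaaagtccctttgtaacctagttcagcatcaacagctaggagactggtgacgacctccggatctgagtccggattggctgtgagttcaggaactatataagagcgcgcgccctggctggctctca
Igtp, chr11:58199456-58199555, plus strand: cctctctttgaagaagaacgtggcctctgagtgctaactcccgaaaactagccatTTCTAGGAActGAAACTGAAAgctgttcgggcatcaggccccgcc
Irgm2, chr11:58214877-58214976, plus strand: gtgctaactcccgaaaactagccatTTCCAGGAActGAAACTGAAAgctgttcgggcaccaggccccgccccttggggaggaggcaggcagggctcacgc
Irgm1, chr11:48871421-48871520, minus strand: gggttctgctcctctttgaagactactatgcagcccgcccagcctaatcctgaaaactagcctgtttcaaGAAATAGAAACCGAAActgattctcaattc
Isg15, chr4:156200819-156200918, minus strand: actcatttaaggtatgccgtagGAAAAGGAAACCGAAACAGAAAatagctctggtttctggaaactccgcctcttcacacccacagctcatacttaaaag

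Igtp and Irgm2 had both motifs in the same order, B2m and Irgm1 had matches to the ISRE core alone, and Isg15 had a run of overlapping ISRE cores. In the 250 bases before the start, 3.04% of 27025 promoters held the ISRE core and 7.18% held GAS. A promoter was found for 43 of the 60 interferon genes tested, and 20 of these (46.5%) held the ISRE core. For the 25 that rose, 19 had a promoter, of which 12 (63.2%) held the ISRE core and 6 (31.6%) held GAS. GAS was held by 14 of the 43 (32.6%), a share like that of the genes that rose. Of the antigen presentation genes that rose, 4 of 20 with a promoter (20%) held the ISRE core and 1 (5%) held GAS, which is no more than in all promoters. A match describes the letters and is not evidence of binding in these hearts.

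Other inflammatory genes followed with smaller or less even differences. Among 20 cytokines, chemokines and adhesion molecules tested, 7 rose (14.0% of all genes) and 1 fell (11.6% of all genes), with a median log2 difference of 0.32 (4 rose without Met/Met replicate 2). Vcam1 and Icam1, with which endothelial cells hold leukocytes, had no overlap between the groups: Vcam1 had 670, 777, 731 and 725 in Met/Met hearts against 495 to 583, and Icam1 had 456, 441, 554 and 481 against 303 to 352. Their log2 differences were 0.44 (standard error 0.08, limma adjusted p = 0.00912) and 0.58 (standard error 0.14, limma adjusted p = 0.0368). Il10ra, the receptor chain for the anti-inflammatory cytokine IL-10, had 139, 132, 223 and 160 against 91.5 to 151, and its log2 difference of 0.44 did not pass (limma adjusted p = 0.233).

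Of 18 complement genes tested 10 rose (14.0% of all genes) and none fell (median 0.40), a number that was 6 without Met/Met replicate 1 and 3 without replicate 3. C3, the central component, had 7060, 9317, 7495 and 7900 in Met/Met hearts and between 3402 and 6784 (median 4565) in Val/Met hearts. C4b had 820, 859, 738 and 804 against 339 to 530. In neither gene did the hearts overlap, and the log2 differences were 0.76 and 0.93 (limma adjusted p = 0.102 and 0.124).

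Markers of immune cells were also higher. Of 14 macrophage and monocyte markers analysed, out of 16 listed, 6 rose (14.0% of all genes), none fell and the median log2 difference was 0.37; 2 rose without Met/Met replicate 1 and 1 without replicate 3. Their summed level was between 10195 and 13353 in Met/Met and between 8530 and 10562 in Val/Met hearts, which overlapped. Adgre1, which encodes the macrophage protein F4/80, had 659, 498, 528 and 557 against 309 to 438 (log2 difference 0.56, limma adjusted p = 0.0963), and Fcgr1, a macrophage Fc receptor, had 98.1, 51.3, 77.1 and 73.0 against 32.6 to 46.3 (0.94, limma adjusted p = 0.148). Lgals3, the galectin of activated macrophages, had 55.3, 72.8, 98.7 and 73.5 against 24.0 to 40.2 (1.19, limma adjusted p = 0.0772). Of 16 T and NK cell markers only Cd4 was analysed here, at 52.9, 65.7, 50.7 and 56.1 in Met/Met and 19.0 to 34.5 in Val/Met hearts (1.23, limma adjusted p = 0.0415). Some macrophages also use Cd4. Of 15 B and plasma cell markers 1 was analysed here and did not pass, and none of 10 neutrophil markers was analysed here. The part of immune cell numbers in the rise of antigen presentation and interferon genes was not tested.

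The other large groups with higher values in Met/Met hearts were ribosomal and mitochondrial. Of 81 cytosolic ribosomal protein genes, 58 rose (14.0% of all genes) and 1 fell (median 0.27). Of 77 mitochondrial ribosomal protein genes, 50 rose (median 0.19). Of 81 nuclear genes of oxidative phosphorylation, 66 rose and none fell (median 0.30), and in 64 all Met/Met hearts were above all Val/Met hearts (11.5% of all genes). All genes in the bins of transcript length that these members fall in had a median of 0.24 for the cytosolic ribosomal and oxidative phosphorylation lists and of 0.12 for the mitochondrial ribosomal list. The differences of single genes were small beside those of antigen presentation, and the hearts of a group lay close together. Atp5mpl, a small subunit of ATP synthase, had 2563, 2832, 2864 and 2750 in Met/Met and between 1719 and 2010 (median 1907) in Val/Met hearts (log2 difference 0.55, standard error 0.07, limma adjusted p = 0.000896). Cox6b1, a subunit of cytochrome c oxidase, had 11595 ± 126 (SD, n = 4) against 8905 ± 231 (SD, n = 6), and Ndufa7, a subunit of complex I, had 2844 ± 88.5 against 2074 ± 94.3. Rpl10a rose from 343 ± 19.9 to 479 ± 38.8 and Rpl41 from 2629 ± 174 to 3860 ± 343. Counts of ribosomal protein genes can include reads from their many processed pseudogenes.

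A property of the transcripts moved with the same contrast. The tested genes that matched a GENCODE transcript, 13441, were put in 8 bins of equal size by the length of the longest transcript. The median log2 difference fell from 0.24 in the bin of the shortest transcripts, up to 1389 bases, to -0.11 in the bin of the longest. By GC share it went from -0.33 in the poorest bin to 0.12 in the richest. Across genes, which are not independent replicates, Spearman's rho of the difference was -0.45 with length and 0.50 with GC share. In single hearts, the median deviation of the shortest bin minus that of the longest was between 0.16 and 0.31 (log2) in Met/Met and between -0.18 and -0.02 in Val/Met hearts, so that the groups did not overlap. The same index for GC share, richest minus poorest bin, did overlap, between -0.04 and 0.51 in Met/Met and between -0.30 and 0.16 in Val/Met hearts. The length index lay between -0.13 and 0.16 in male Val/Val hearts. The difference between female Met/Met and Val/Met hearts showed no such gradient, with medians of -0.01 in the shortest and 0.00 in the longest bin. Of 10 nuclear and noncoding RNAs that were read as signs of RNA quality, 2 rose (14.0% of all genes) and 4 fell (11.6% of all genes). Malat1, a long nuclear RNA, had 185757, 150029, 136991 and 156292 in Met/Met hearts and between 270801 and 326829 in Val/Met hearts, and Rpph1, the short RNA of RNase P, had 37803, 47054, 51264 and 45010 against 27271 to 28656. Of 13 genes of the mitochondrial genome, 4 rose (14.0% of all genes) and none fell, with a median of 0.15. Their summed level did not overlap, between 3.52e+06 and 3.87e+06 in Met/Met and between 2.97e+06 and 3.33e+06 in Val/Met hearts.

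Each list was therefore also examined after the median of the genes of the same length and GC bins had been taken off in each heart, a step that was added after the gradient was seen. It left 8.69% of all genes higher and 8.62% lower at an unadjusted p under 0.05. In antigen presentation 21 of 27 members rose, 1 fell, and the median was 0.58. For interferon genes, 30 of 60 rose, and the median was 0.29. Of 13 genes of the mitochondrial genome 5 rose and none fell, and the median was 0.15. The ribosomal and oxidative phosphorylation lists shrank: 27 of 81 cytosolic ribosomal protein genes rose with a median of 0.07, 26 of 77 mitochondrial ribosomal protein genes with a median of 0.10, and 31 of 78 oxidative phosphorylation genes with a median of 0.10. The smaller immune lists shrank as well. Of 18 complement genes 5 rose (median 0.25), of 14 macrophage and monocyte markers 3 (median 0.25), and of 20 cytokines, chemokines and adhesion molecules 4 rose and 1 fell (median 0.21). B2m differed by 0.91 after this step (limma adjusted p = 0.0769), H2-K1 by 0.73 (0.0433), and Igtp by 1.01 (0.0912), whereas Atp5mpl differed by 0.28 (0.0643) and Cox6b1 by 0.13 (0.116). The part of length and GC in the remaining differences was not tested further.

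**Figure D2:**
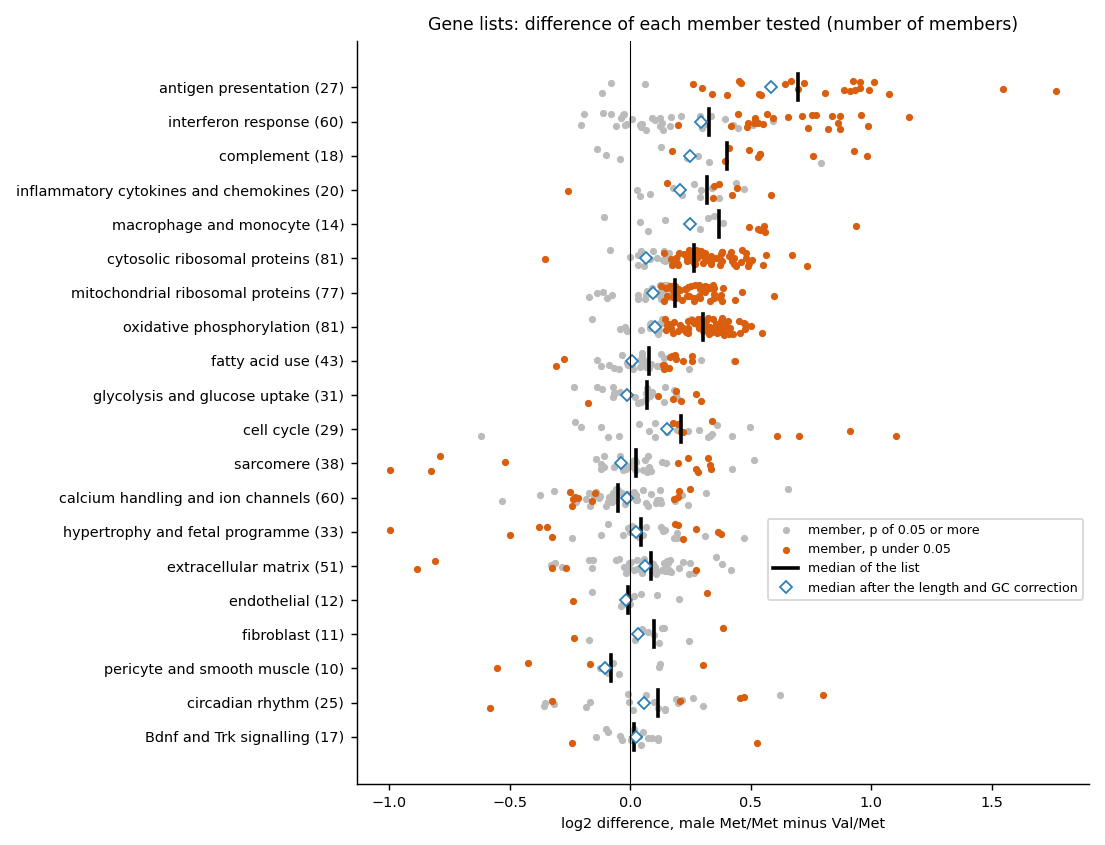
Log2 difference between male Met/Met and Val/Met hearts for each tested member of 20 gene lists (points, orange for an unadjusted p under 0.05), with the median of the list (black bar) and the median after the length and GC correction (open diamond). Antigen presentation keeps a median of 0.58 after the correction, while the medians of the ribosomal and oxidative phosphorylation lists move to between 0.07 and 0.10.

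**Figure D3:**
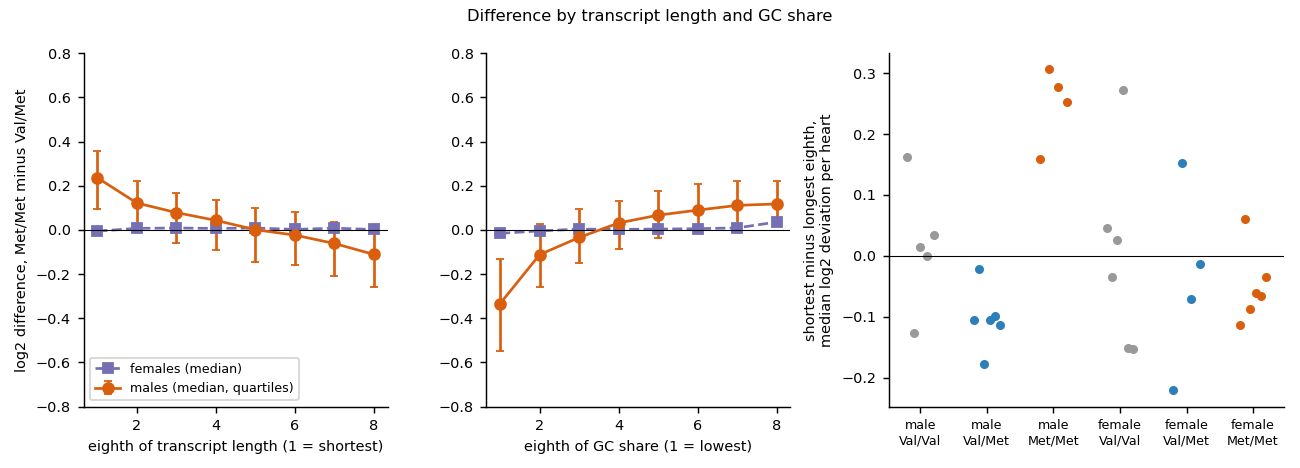
Left and middle panels give the median log2 difference between Met/Met and Val/Met hearts, with quartiles for males, in 8 bins of transcript length and of GC share, and the right panel gives the median log2 deviation of the shortest bin minus that of the longest in each heart. The male medians fall from 0.24 to -0.11 with length, the female medians stay near 0, and the 4 male Met/Met hearts lie above all male Val/Met hearts.

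Genes of the contractile apparatus gave a mixed picture. Of 38 sarcomere genes, 7 rose (18.4%, against 14.0% of all genes) and 4 fell (10.5%, against 11.6%), shares near those of all genes, with a median of 0.02. The largest differences were falls, and the list ran from -0.99 to 0.51. Of those that fell 3 were at least 1.5-fold lower (2.70% of all genes), and none that rose was 1.5-fold higher (1.54%). A limma adjusted p under 0.05 was reached by 5 that rose and by none that fell. The number that fell was 1 without Met/Met replicate 2 or 3 and 2 without Met/Met replicate 4 or Val/Met replicate 1, 3 or 5. Among those that rose were Tnnc1, which encodes cardiac troponin C (26157 ± 1597 in Met/Met and 20747 ± 1010 in Val/Met hearts, log2 difference 0.33, limma adjusted p = 0.0198), Myl2, the ventricular regulatory light chain (78470 ± 1537 and 65040 ± 2275, 0.27, limma adjusted p = 0.0338) and Cryab, a small heat shock protein that protects the sarcomere (18523 ± 847 and 14701 ± 367, 0.33, limma adjusted p = 0.00706). After the length and GC correction the differences of these 3 were 0.07, 0.02 and 0.06, and none passed. Of 60 genes of calcium handling and ion channels, 4 rose and 7 fell (median -0.05), shares no larger than about those of all genes, and leaving out 1 heart gave between 1 and 7 that rose (1 without Met/Met replicate 2, 7 without replicate 1) and between 3 and 11 that fell (3 without Met/Met replicate 2 or 3 or Val/Met replicate 1, 4 without Val/Met replicate 5, 11 without Met/Met replicate 1). Atp2a2, the calcium pump SERCA2 that refills the sarcoplasmic reticulum, had 522819, 493633, 408480 and 472399 in Met/Met hearts and between 485462 and 621351 (median 561428) in Val/Met hearts. The groups overlapped, and its log2 difference of -0.25 (standard error 0.12, limma adjusted p = 0.19) lost its unadjusted p under 0.05 when Met/Met replicate 2, 3 or 4 or any of Val/Met replicates 1, 2, 4, 5 and 6 was left out (-0.18 without Met/Met replicate 3). S100a1, a calcium sensor that binds this pump, differed by 0.25 (limma adjusted p = 0.056), and by -0.01 after the correction. Nppb, which encodes the natriuretic peptide BNP of the stressed ventricle, had 3296, 2002, 2736 and 2624 against 2078 to 3125, and the groups overlapped (log2 difference 0.04, standard error 0.30).

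Few markers of the other cells of the heart passed the test, beside 14.0% of all genes that rose and 11.6% that fell. Of 12 cardiomyocyte markers 2 rose, of 12 endothelial markers 1 rose and 1 fell, and of 11 fibroblast markers 1 rose and 1 fell, with medians of 0.08, -0.01 and 0.10. Of 10 pericyte and smooth muscle markers 3 fell and 1 rose (median -0.08). Their summed level, between 40692 and 42731 in Met/Met and between 47945 and 50964 in Val/Met hearts, did not overlap, but without Rgs5 it did, between 25023 and 28353 against 26743 to 29173. Rgs5, the most used pericyte marker, had 15669, 13620, 14378 and 14531 against 19403 to 23402 (log2 difference -0.55, limma adjusted p = 0.043), and Myh11, the myosin of smooth muscle, had 374, 510, 537 and 468 against 545 to 748 (-0.42, limma adjusted p = 0.0751). Both fell without overlap. Val/Val hearts, between 13811 and 24457 for Rgs5, reached into the range of each group, whereas for Myh11 they lay between 550 and 705, above all Met/Met hearts. The others that passed were Mylk, the myosin light chain kinase (-0.16, limma adjusted p = 0.194, with overlap), and Vtn, a pericyte marker that rose without overlap (734 ± 68.5 against 594 ± 25.3, 0.30, limma adjusted p = 0.183). After the length and GC correction Rgs5 differed by -0.27. Of the 10 pericyte and smooth muscle markers 4 then fell (40%, against 8.62% of all genes) and none rose (median -0.11). Of 12 endothelial markers 2 rose and 3 fell, of 12 cardiomyocyte markers none rose and 2 fell, and no fibroblast marker passed. Before the correction the 2 endothelial markers that passed went opposite ways. Vwf, the clotting factor of endothelial granules, had 4946, 5010, 4334 and 4754 against 3305 to 4177 (0.32, limma adjusted p = 0.172), whereas Flt1, a receptor for vascular growth factors on endothelial cells, had 4150, 4248, 4455 and 4282 against 4550 to 5729 (-0.24, limma adjusted p = 0.0428). The calls of Vtn, Mylk and Vwf hung on single hearts: their differences stayed between 0.26 and 0.37, -0.20 and -0.14, and 0.28 and 0.36, but the unadjusted p was 0.05 or more for Vtn without Met/Met replicate 2, 3 or 4 or any Val/Met replicate but 3, for Mylk without Met/Met replicate 1, 2 or 4 or Val/Met replicate 2, 3, 4 or 6, and for Vwf without Met/Met replicate 1, 2 or 4 or Val/Met replicate 1 or 5. Of 51 extracellular matrix genes 1 rose and 4 fell (1.96% and 7.84%, against 14.0% and 11.6% of all genes). The number that fell was 1 without Val/Met replicate 3, and 2 without Met/Met replicate 2, 3 or 4 or Val/Met replicate 5.

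Further lists are set beside the shares of all genes, of which 14.0% rose and 11.6% fell. Of 29 cell cycle genes 9 rose (31%) and none fell (median 0.21). Between 5 and 9 rose when a heart was left out (5 without Met/Met replicate 3 or Val/Met replicate 3). After the length and GC correction 7 of them rose (24.1%, against 8.69% of all genes) and none fell. Mcm5, a subunit of the replicative helicase, had 98.2, 118, 155 and 121 in Met/Met hearts and between 62.0 and 85.6 in Val/Met hearts (log2 difference 0.70, limma adjusted p = 0.0582). Of 43 genes of fatty acid use 12 rose (27.9%) and 2 fell, with a median of 0.08. Leaving out 1 heart gave between 7 and 12 that rose, and after the correction 5 rose. Of 31 genes of glycolysis and glucose uptake 6 rose and 1 fell, of 33 hypertrophy genes 6 rose and 5 fell, and of 36 genes of heat shock and the unfolded protein response 8 rose and 2 fell. Among 25 immediate early genes, which respond within minutes to stress or handling, 4 rose and none fell. For 22 hypoxia targets the numbers were 3 and 3, for 21 glucocorticoid targets 2 and 1, and for 21 genes of endothelial nitric oxide signalling 3 and 4. None of 7 erythroid markers, 2 of 9 atrial markers and 1 of 7 adipocyte markers rose. The atrial markers summed to between 4693 and 11384 in Met/Met and between 4200 and 6109 in Val/Met hearts.

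Genes of the circadian clock stood out by single members. Dbp, a transcription factor whose RNA rises and falls strongly over the day, had 1216, 2026, 1538 and 1559 in Met/Met hearts and between 712 and 1018 (median 904) in Val/Met hearts, without overlap. Its log2 difference was 0.80 (standard error 0.13, limma adjusted p = 0.00616). Bhlhe40, a repressor within the clock, had 1470, 2108, 1996 and 1836 against 1113 to 1497 (0.46, limma adjusted p = 0.0436), and Clock itself had 2518, 1656, 1828 and 1968 against 2436 to 3389 (-0.58, limma adjusted p = 0.0825). In both genes Met/Met replicate 1 was the heart that reached into the range of the Val/Met hearts. Of the 25 genes of the circadian list tested, 4 rose (16%, against 14.0% of all genes) and 2 fell (8%, against 11.6%). The list as a whole was thus near the shares of all genes. It is wider than the clock itself, and those that rose included Tspan4, a tetraspanin gene (log2 difference 0.47, limma adjusted p = 0.0485). The time of day at which the hearts were taken is not given in the sources used here.

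Yy2, a zinc finger transcription factor that arose as a copied-back form of Yy1, had the smallest p of all genes tested. It lies on chromosome X from 157566119 to 157568985 (mm10). It had 6.35, 3.75, 3.95 and 4.55 normalized counts in Met/Met hearts and between 37.3 and 66.8 (median 51.7) in Val/Met hearts, with Val/Val hearts from 18.1 to 96.4. The Met/Met hearts were thus all below 6.4 while no other male heart was below 18.1. Its log2 difference was -3.48 (standard error 0.40, limma adjusted p = 0.000247), and it was -3.23 after the length and GC correction. Since the Met/Met values lie far under the minimum mean of 29, its size depends on the offset added before the log, and with an offset of 29 it was -1.25 (limma adjusted p = 0.00877). Yy1 differed by -0.09 (limma adjusted p = 0.271). Gm47644, a sense-intronic RNA on chromosome 10, was at 114, 147, 164 and 140 against 253 to 468 (-1.34, limma adjusted p = 0.000896).

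Other genes that fell without overlap included Hecw2, a ubiquitin ligase (902 ± 92.2 against 1395 ± 135, log2 difference -0.63), Rasgrp2, an activator of the small GTPase Rap1 (510 ± 39.4 against 790 ± 67.2, -0.63), and Ccdc85a (436 ± 8.59 against 724 ± 93.0, -0.72), with limma adjusted p = 0.013, 0.025 and 0.025. Nr5a2, a nuclear receptor, had between 16.4 and 17.4 in the 4 Met/Met hearts against 27.7 to 32.6 (-0.81, limma adjusted p = 0.0619). Protein-coding genes, 86.2% of those tested, were 124 (58.5%) of the 212 higher and 171 (46.1%) of the 371 lower genes. Processed pseudogenes, 4.3% of those tested, were 38 (17.9%) of the higher genes. Transcripts of the annotation class TEC, which have no settled gene model and were 3.23% of those tested, were 132 (35.6%) of the lower and none of the higher genes.

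Bdnf itself did not pass the test. It had 371, 240, 266 and 287 in Met/Met hearts and between 275 and 394 (median 305) in Val/Met hearts, with overlap, and its log2 difference was -0.14 (standard error 0.20, limma adjusted p = 0.678). Since reads of the human sequence were aligned to the mouse genome, this value is no check of the genotype. The receptor gene Ntrk2 was not analysed here. Of 17 genes of BDNF and Trk signalling tested, 1 rose and 1 fell, a share below that of all genes. Of 91 genes tested within 10 Mb of Bdnf on chromosome 2, 14 rose and 12 fell, close to the share of all genes, and 2 were at least 1.5-fold higher, the mitotic checkpoint kinase gene Bub1b and the pseudogene Rpl35a-ps4.

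Of the genes that the study names, Cabp1, a calcium-binding protein, had 101, 82.6, 78.1 and 86.6 in Met/Met hearts and between 102 and 156 (median 130) in Val/Met hearts, and fell by 0.56 on the log2 scale (standard error 0.14, limma adjusted p = 0.0414). Adora2b, a receptor for adenosine, had 32.2, 29.9, 26.3 and 29.4 against 10.4 to 28.5, where Val/Met replicate 1 was the heart that overlapped (0.81, limma adjusted p = 0.133). Val/Val hearts were between 19.5 and 43.1. Among the hypoxia and glucocorticoid targets, Hmox1, the inducible heme oxygenase, had 197, 207, 306 and 232 against 124 to 170 (0.66, limma adjusted p = 0.0407). Zbtb16, a transcription factor induced by glucocorticoids, had 4079, 3057, 3279 and 3445 against 3989 to 7120 (-0.61, limma adjusted p = 0.0406).

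The same contrast in females, Met/Met minus Val/Met, gave 348 genes lower (2.53%) and 356 higher (2.59%) at an unadjusted p under 0.05, and 6 (0.0437%) at an adjusted p under 0.05. It uses other hearts, so the difference between the sexes could be tested as an interaction, which passed an unadjusted p under 0.05 for 1898 genes (13.8%) and an adjusted p under 0.05 for 46 (0.335%). Of these 46 genes, 36 had a positive difference in males. Antigen presentation was prominent among them. In females 6 of its 27 members fell, none rose and the median was -0.26, and the interaction passed an unadjusted p under 0.05 for 24 of 27 and an adjusted p under 0.05 for 7. B2m differed by 0.93 in males and by -0.49 in females (interaction 1.41, limma adjusted p = 0.0184), and H2-K1 by 0.91 and -0.44 (limma adjusted p = 0.0232). For interferon genes the interaction passed an unadjusted p for 24 of 60 and an adjusted p for 4, among them Igtp (1.16 and -0.87, limma adjusted p = 0.0349) and Cxcl9 (0.87 and -0.47, limma adjusted p = 0.0339).

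The female side of these immune genes rests on 2 of the 4 female Val/Met hearts. B2m had 2954, 4993, 2655 and 5556 in female Val/Met replicates 1, 2, 5 and 6, against 2363 to 3573 in female Met/Met and 2511 to 3264 in female Val/Val hearts. Igtp had 345, 1307, 364 and 1239, against 295 to 460 and 291 to 371. Replicates 2 and 6 stood above all other female hearts for both genes, and replicates 1 and 5 lay within the range of the female Met/Met hearts. Without replicate 2, 1 antigen presentation gene fell in females, and none did without replicate 6, whereas 14 and 15 fell without replicates 1 and 5. The number of genes with an adjusted p under 0.05 in the interaction was 167, 30, 48 and 13 without replicates 1, 2, 5 and 6. Among antigen presentation genes it was then 11, 5, 10 and 4, and among interferon genes 8, 2, 5 and 0. The interaction of B2m stayed between 1.23 and 1.59, with a limma adjusted p of at most 0.0377, while that of Igtp was 1.73 (limma adjusted p = 0.0601) without replicate 6 and that of Cxcl9 was 1.25 (0.0741) and 1.19 (0.0939) without replicates 2 and 6.

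Genes of the circadian list also differed between the sexes. Of 25 members, 17 passed an unadjusted p under 0.05 in the interaction (13.8% of all genes), 4 of them an adjusted p (0.335% of all genes). In females 5 of the 25 rose and 11 fell (2.59% and 2.53% of all genes), against 4 and 2 in males. Dbp, at 0.80 in males and -1.47 in females, had the smallest p of all genes (interaction 2.27, limma adjusted p = 4.4e-07). In females it lay between 1107 and 1502 in Met/Met and between 3451 and 3807 in Val/Met hearts, and each left-out female Val/Met heart gave an interaction of at least 2.24. Bhlhe40 differed by 0.46 and -0.54 (limma adjusted p = 0.015) and Nfil3, a repressor of the genes that Dbp activates, by -0.32 and 0.81 (limma adjusted p = 0.0211, and 0.0601 without female Val/Met replicate 6). Tcap, the titin cap protein of the sarcomere, differed by 0.32 in males and -0.66 in females (limma adjusted p = 0.000965), while in males its groups overlapped, with 12343, 17440, 14224 and 14521 in Met/Met against 10939 to 12547 in Val/Met hearts. After the length and GC correction the male difference of Tcap was 0.04. Yy2 was 0.09 in females (limma adjusted p = 0.0119 for the interaction).

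**Figure D4:**
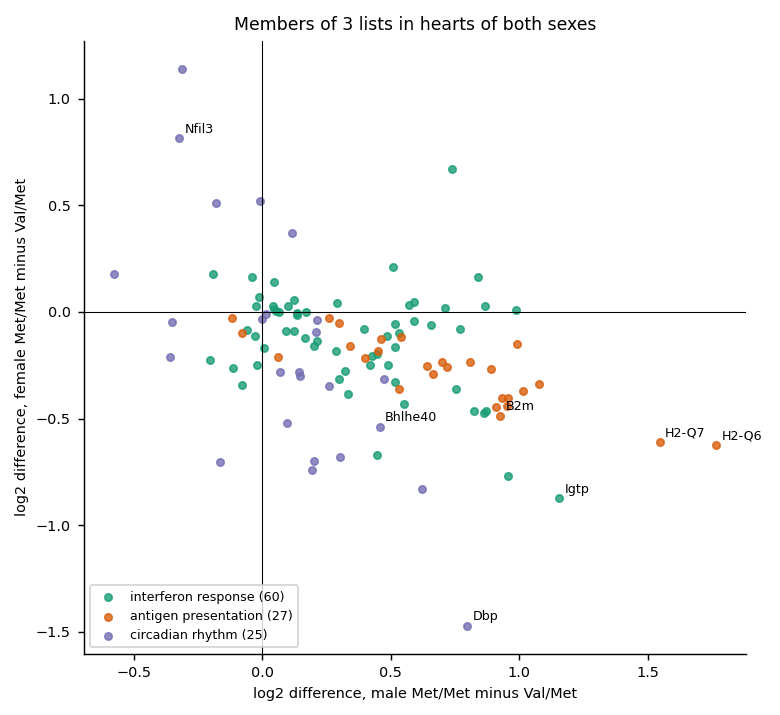
Log2 difference between Met/Met and Val/Met hearts in males (horizontal) and females (vertical) for the tested members of the interferon, antigen presentation and circadian lists. The antigen presentation genes with the largest male differences, H2-Q6 and H2-Q7, are at -0.62 and -0.61 in females, and Dbp is at 0.80 in males and -1.47 in females.

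Set beside male Val/Val hearts, which both comparisons share, few immune genes passed in Val/Met hearts, and more did in Met/Met hearts, most of all in the antigen presentation and interferon lists. In antigen presentation 22 of 27 genes rose in Met/Met minus Val/Val (6.60% of all genes), with a median of 0.76, and 1 of 27 in Val/Met minus Val/Val (1.00% of all genes), with a median of -0.06. In the interferon list the numbers were 23 and 0 of 60, with medians of 0.24 and -0.02, and 2 fell in Val/Met hearts (2.13% of all genes). Of 20 cytokines, chemokines and adhesion molecules 3 rose and 1 fell in Met/Met hearts (3.48% of all genes fell), of 18 complement genes 4 rose and of 14 macrophage and monocyte markers 2 rose, and none of these lists had a member that passed in Val/Met hearts. For oxidative phosphorylation 57 of 81 rose in Met/Met hearts (median 0.21), while in Val/Met hearts none rose and 8 fell (median -0.06). Values below those of Val/Val hearts are thus part of the gap between Met/Met and Val/Met hearts. This was not particular to the list: all genes in the bin of the shortest transcripts had medians of 0.16 and -0.07 in the same comparisons. Adora2b and Yy2 had other orders: Adora2b was lower in Val/Met hearts (17.5 ± 5.94, n = 6) than in Met/Met (29.4 ± 2.43, n = 4), and Yy2 was low in Met/Met hearts alone.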

How the data were processed

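Whole-heart RNA of 31 mice was sequenced as paired reads. Per the labels RNA was taken with Trizol and libraries were made with a TruSeq RNA kit, whereas the study's methods name RNeasy columns and the stranded total RNA kit. The authors aligned reads to mm10 with STAR (the submitters' processing notes and the study's methods name different versions), assigned them to Ensembl genes by expectation maximization in Partek and deposited normalized counts (unit signal: a normalized expression signal, not whole reads). The study's methods describe a normalization to the total reads of each sample, but the sums of the deposited values were not equal. The read depth behind each value is therefore unknown, and no counting interval is given. The deposited values also had equal batch means within each group, a step whose method is not given in the sources used here.

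Groups came from the labels and batches from the leading number of the library names. Values were analysed as log2(value + 0.0001), so folds are on that scale, for the 13733 genes of 13840 with a mean of at least 29. limma 3.58.1 (R 4.3.3) was fitted with a mean for each group and batch over all 31 hearts (17 residual degrees of freedom, against 25 without batch), with a trended prior, and the batch means of a group were weighted by their hearts. p-values are two-sided, and adjustment was by Benjamini-Hochberg over all genes. The fit was tried on simulated data with planted changes and independent noise for each gene. These data held no gradient with length or GC share, so the trial does not bear on the one seen here. The study states that litters were matched within batches, but the labels do not tie single hearts to litters, so litter could not enter the fit. The p-values rest on the spread between hearts of the same group and batch, pooled over all 31 hearts and moderated by the prior. They do not measure spread between batches, since the batch means of a group were equal. Of the symbols, 13570 matched a GENCODE M21 gene.

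Deviations of same-numbered Met/Met and Val/Met hearts from their group means correlated at 0.43, 0.22, -0.02 and 0.00. The value for replicate 4 was fixed in advance, since that Met/Met heart lay at the mean of its group. These correlations therefore cannot decide whether the replicate numbers pair the hearts, and the main fit did not pair them.

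Genes are named by a rule: the smallest p and the largest protein-coding differences without overlap in each direction, up to 4 members of each list by p, and the genes the study names. Further genes were chosen after their values were seen: H2-K1, H2-D1, H2-T22, Psmb8, Tap1, Psme1, Cd74, H2-Aa, H2-Ab1, Irgm2, Isg15, Yy1, Rpl35a-ps4, Bub1b, mt-Cytb, Gm4613, Nfil3 and Tef. The hearts compared and all gene lists were chosen with earlier results of these data known. Alternatives are described at the end. A few single-gene results are not reported here.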

Additional observations from a re-analysis of the deposited data

Results flagged for a closer look

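Differences between Met/Met and Val/Met hearts that were not the same in males and females, by an interaction test with a limma adjusted p under 0.05, were found for 22 of the genes named. In this paragraph each value is the male log2 difference minus the female one. The values are without the length and GC correction, and the gradient with length was seen in the male difference and not in the female one. It was 1.41 for B2m, 1.36 for H2-K1, 1.16 for H2-Q4, 2.39 for H2-Q6, 2.16 for H2-Q7, 1.04 for H2-T22 and 0.62 for Psme1, all of antigen presentation. Among interferon genes it was 2.03 for Igtp, 1.73 for Irgm2 and 1.34 for Cxcl9. Among ribosomal and mitochondrial genes it was 0.50 for Rpl10a, 0.86 for Mrpl52, 0.55 for Atp5mpl and 0.45 for Cox6b1, and among sarcomere genes 0.42 for Cryab and 0.98 for Tcap. For clock genes it was 2.27 for Dbp, 0.99 for Bhlhe40, -1.14 for Nfil3 and 0.62 for Tef. It was -3.57 for Yy2 and -1.31 for Gm47644.

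A single heart stood far from the others of its group for 4 of 158 pairs of a gene and a group examined. The cut-offs used are meant for independent values. Since the values of each batch share the mean of their group, the number expected by chance is not known. Cfd, which was under the minimum level and not tested, had 26.1 in Met/Met replicate 2 and no more than 3.10 in the other Met/Met hearts. Adora2b had 28.5 in Val/Met replicate 1 and at most 16.96 in the others. In Val/Met replicate 2, Bub1b had 40.5 against at most 22.7 in the others, and Ndufa7 had 2248 against at most 2073.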

How the results depend on the processing

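The log2 differences of the 78 genes followed kept their sign under all alternatives but the length and GC correction, apart from Nppb, whose difference was near 0 and ranged from -0.072 to 0.17 when a heart was left out. After the length and GC correction, chosen after seeing the data, Nppb (-0.16), S100a1 (-0.0145), Bdnf (0.14) and Hif1a (0.07) changed sign, and none of the 4 passed. Of 74 genes at an unadjusted p under 0.05, 65 kept it whichever single heart was left out. The number at an unadjusted p under 0.05 and 1.5-fold, 583, was 287 with the first batch only, 300 with an offset of 29, 146 with a minimum mean of 290, 310 after the length and GC correction, and between 394 and 881 when a heart was left out. With an offset of 29, genes near that level shrank most: Yy2 to -1.25, Cd4 to 0.68, Lgals3 to 0.75, Fcgr1 to 0.61, Isg15 to 0.58, Adora2b to 0.34 (unadjusted p = 0.0683) and Nr5a2 to -0.36. The number at an adjusted p under 0.05, 441, depended most on the design: 2758 with no term for batch, 1588 with only the 10 hearts, 52 with equal weights for batches, 54 without the hearts alone in their batch, 1 with the first batch only, 40 after the length and GC correction, and between 45 and 608 when a heart was left out. Without the fold limit, 3528 became 1384 with the first batch only, 2327 after the correction, and between 2357 and 4053 when a heart was left out. With a minimum mean of 290, 14 antigen presentation and 10 interferon members were tested and rose. After the correction 27 cytosolic ribosomal and 31 oxidative phosphorylation genes rose. When a heart was left out, between 20 and 24 antigen presentation genes, 19 and 26 interferon genes, 53 and 61 cytosolic ribosomal genes and 62 and 66 oxidative phosphorylation genes rose. The interaction number of 481 was 216 with the first batch only, 300 with an offset of 29, 121 with a minimum mean of 290, and between 351 and 785 when a heart was left out, female Val/Met hearts included, which were added after seeing the data (785 without female Val/Met replicate 1). Beyond what the alternatives themselves do (fewer hearts or genes, a larger offset), the cause was not tested.

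With the replicate number as a block, 3972 genes had an adjusted p under 0.05, 5986 an unadjusted p under 0.05, and 39 interferon genes rose. Whether the numbers pair the hearts is not known, and this fit has only 3 residual degrees of freedom. The depth behind each value is unknown, so that the precision of low values cannot be given.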
